A study of Homo sapiens with 2 samples.

Results

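Aminoacyl-tRNA synthetases were examined as a family in AGS cells in which galectin-3 had been silenced. AGS is a human line of gastric adenocarcinoma cells, and galectin-3, the product of LGALS3, is a sugar-binding lectin of the cytoplasm, nucleus and cell surface. The family was taken as a fixed list of 35 genes, 19 for enzymes of the cytosol and 16 for enzymes of the mitochondrion, among the 19775 genes that the array names. There were 2 one-colour Affymetrix arrays of total RNA, 1 from cells labelled control and 1 from cells labelled galectin-3 silenced, the latter treated with a small interfering RNA. Both are of the same cell line. The treatment of the control cells, the siRNA dose and the time after transfection are not stated in those labels. The study looked for expression differences that accompany loss of galectin-3. Each group is 1 array, so the differences below lack a replicate check, carry no test, and are only as precise as 2 arrays allow.

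An aminoacyl-tRNA synthetase joins an amino acid to its transfer RNA, and the charged transfer RNA then brings the amino acid to the ribosome. Cytosolic and mitochondrial translation use separate enzymes for most amino acids, and all of these genes lie in the nucleus, including those for the mitochondrial enzymes. Several cytosolic genes are known targets of ATF4, the transcription factor of the amino acid and unfolded protein stress responses. WARS1, the cytosolic tryptophan enzyme, is the member known to be induced by interferon gamma, which also induces IDO1, an enzyme that breaks tryptophan down.

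Because WARS1 is the interferon-induced member, its promoter is shown here, from the RefSeq promoter table of build GRCh38.p14. The table gives 2 start sites for WARS1, 980 bases apart. The 250 bases before the downstream site hold both elements of interferon signalling. One is the interferon-stimulated response element, searched as TTTC, any 2 bases and TTTC, and the other is the gamma-activated site, searched as TTCNNNGAA, each on both strands. The stretch lies at chr14:100375348-100375597 on the minus strand, and the capitals mark the gamma-activated site (nearer the 5′ end) and the response element, which runs on the opposite strand.
WARS1: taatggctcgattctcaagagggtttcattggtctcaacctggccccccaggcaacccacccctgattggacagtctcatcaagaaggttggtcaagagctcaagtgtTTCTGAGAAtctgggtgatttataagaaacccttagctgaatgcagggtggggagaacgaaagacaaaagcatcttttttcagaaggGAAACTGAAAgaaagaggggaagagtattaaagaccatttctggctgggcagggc

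Of 35116 promoter windows in the table, 3.02% held the response element, 6.57% the gamma-activated site and 0.310% both. The table matched 30 of the 35 members, all but AARS2, LARS1, VARS1, VARS2 and YARS1. Among these 30 the response element was found in WARS1 and EARS2, the gamma-activated site in WARS1, WARS2, PARS2 and TARS1, and both together in WARS1 only. Of the 39 windows of these members, 3 held the response element and 6 the gamma-activated site. For comparison, stretches are shown from GBP1, CXCL10 and CXCL11, interferon-induced genes whose signals were higher on the silenced array. Capitals mark the response element in GBP1 (chr1:89065310-89065351) and CXCL10 (chr4:76023693-76023734) and the gamma-activated site in CXCL11 (chr4:76036285-76036320), all on the minus strand.
GBP1: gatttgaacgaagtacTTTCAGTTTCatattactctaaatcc
CXCL10: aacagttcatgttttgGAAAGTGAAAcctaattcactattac
CXCL11: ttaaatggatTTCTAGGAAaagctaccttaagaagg

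The ATF4 element, searched as TGATGNAA on both strands, was found in 3.14% of all windows. On a list of ATF4 and its targets, given below, 3 of 18 genes in the promoter table held it. Among the 30 matched members it was found in 4 of 39 windows, belonging to 4 members. These were AARS1 (chr16:70289668-70289709, minus strand), GARS1 (chr7:30594829-30594870, plus strand), IARS1 (chr9:92293698-92293726, minus strand) and YARS2 (chr12:32756069-32756110, minus strand). They are shown because AARS1, GARS1 and IARS1 are known ATF4 targets and YARS2 was among the members with the lowest ratios. Capitals mark the match, which lies on the opposite strand in AARS1, GARS1 and IARS1. A match is a description of the letters and was not tested as a site.
AARS1: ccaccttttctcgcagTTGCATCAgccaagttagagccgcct
GARS1: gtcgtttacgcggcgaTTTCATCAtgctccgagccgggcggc
IARS1: ccgcattttcagcgcgTTGCATCAcctcc
YARS2: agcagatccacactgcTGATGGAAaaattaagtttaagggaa

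The deposited values are MAS5 signals on a linear scale, and each probe set has 1 value per array. The background floor, the 95th percentile of the signals of 135 olfactory receptor probe sets, came to 138.4 for control and 109.5 for silenced cells. LGALS3 itself had a signal of 20206.3 in control and 2699.8 in silenced cells, a log2 ratio of -2.90. All 7 epithelial markers on the list were above the floor on both arrays. None of the 6 leukocyte markers with a probe set was, nor any fibroblast marker but COL1A1. In RNA from bulk cells a lower signal through fewer expressing cells and through less RNA per cell cannot be told apart.

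Every member that could be read was expressed in these cells. The annotation gave 67 probe sets to 32 of the 35 members. MARS1, QARS1 and TARS2 have 5 probe sets, each of which the annotation also gives to a microRNA gene, so no value is named for them. Of the 67 probe sets, 54 were above the floor on both arrays, 1 on the control array only and 12 on neither. Each gene took the value of its brightest probe set, leaving out the cross-hybridising _x_at kind where another existed. All 32 members were above the floor on both arrays on that probe set, so each ratio below is measured on both sides. The log2 ratio is the silenced array over the control array.

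Most synthetases were slightly lower on the silenced array, and none differed 2-fold on its brightest probe set in the deposited values. The second AARS2 probe set, given below, stood at -1.35. Of the 32 members, 25 (78.1%) had a log2 ratio under 0, beside 49.7% of the 10162 genes measured with a direction. At 1.5-fold, 5 members were lower, beside 10.7% of all genes, and 0 were higher, beside 11.0% of all genes. At 2-fold 0 were lower and 0 higher, beside 3.18% and 3.42% of all genes. The median log2 ratio of the family was -0.12, with the middle 50% from -0.43 to -0.05, beside 0.00 for all genes with the middle 50% from -0.29 to 0.29. The family median turned to 0.063 when the arrays' hybridization controls were set equal, a scaling with a median of 0.18 over all genes. The family then stood at -0.11 relative to that median, and 25 members lay under it. With the poly-A controls set equal, YARS1 and YARS2 passed 2-fold, at -1.21 and -1.14. The median of all genes was then -0.24. With the median over each gene's probe sets, 21 of 32 members were under 0, beside 53.0% of all genes. Leaving out _x_at probe sets and the _s_at kind, which can match several transcripts, 18 of 26 were under 0, beside 50.1%.

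The spread of single probe sets was read from genes with several. Probe sets of the same gene, compared in the 4728 genes that have at least 2 above both floors, differed with an SD of 0.32 in log2 ratio. In the 16 members of that kind the SD was 0.26. This spread is measured within the same RNA and leaves out differences between cultures. In 10 of those 16 members (62.5%) all probe sets went the same way, and in 6 they went both ways, beside 64.2% of all such genes going one way. The plot of ratios by probe set shows both the order of the members and where their probe sets part.

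**Figure D1:**
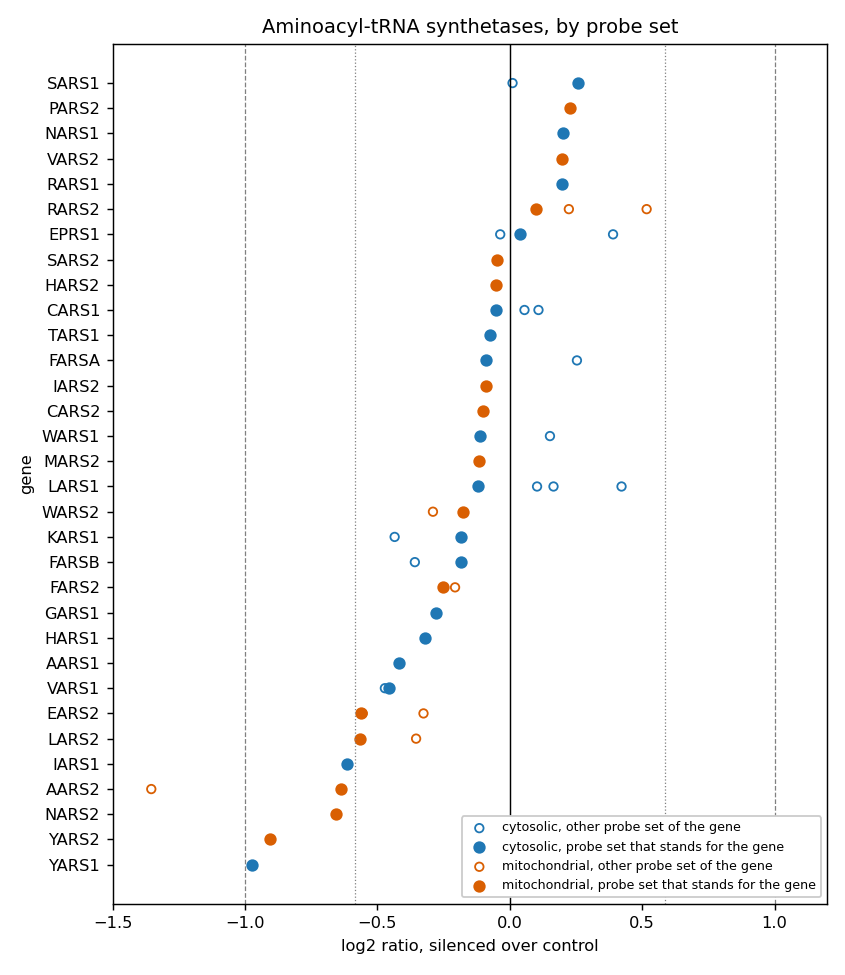
Log2 ratio of silenced over control (horizontal axis) for the 32 synthetase genes with a named probe set (vertical axis, in order of ratio), blue for cytosolic and orange for mitochondrial enzymes. Filled points are the probe sets that stand for the gene and open points other probe sets above both floors. The dotted lines mark 1.5-fold and the dashed lines 2-fold. 25 of the 32 filled points lie left of 0, with YARS1 and YARS2 lowest at -0.97 and -0.91.

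On the brightest probe sets the tyrosine enzymes of both compartments had the lowest ratios of the family. With the median over each gene's probe sets AARS2 was lowest at -0.996, a value that includes a probe set near the floor, and YARS1 stood at -0.43. YARS1, the cytosolic tyrosyl-tRNA synthetase, had a signal of 3821.3 in control and 1947.1 in silenced cells, 1.96-fold lower. The ratio of -0.97 is within the lowest 3.58% of all genes. A second YARS1 probe set, much nearer the floor with signals of 165.1 and 179.6, gave 0.12, so the gene's direction rests on 1 probe set. Without _s_at probe sets, which can match several transcripts, YARS1 takes this second value. YARS2, the mitochondrial tyrosine enzyme, whose variants cause a myopathy with anaemia, had signals of 2437.4 and 1299.9, 1.88-fold lower on its only probe set. Its ratio of -0.91 is within the lowest 4.28% of all genes.

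The other 3 members past 1.5-fold were NARS2, AARS2 and IARS1, all lower. NARS2, the mitochondrial asparagine enzyme, had signals of 2398.4 and 1520.6, with a log2 ratio of -0.66. AARS2, the mitochondrial alanine enzyme, known from inherited cardiomyopathy, had signals of 647 and 415.7, with a ratio of -0.64. It is the only one of the 5 whose second probe set repeated the direction, with signals of 374.4 and 146.4 and a ratio of -1.35. The second of these signals is near the floor of 109.5. The 2 AARS2 ratios differ by more than the SD between probe sets, so the size is not settled. IARS1, the cytosolic isoleucine enzyme, had signals of 13432.8 and 8779.3 and a ratio of -0.61. NARS2 and IARS1 each have 1 probe set, so nothing on the array repeats them. LARS2 at -0.56, 1.48-fold lower, and EARS2 at -0.56 stood just outside 1.5-fold.

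**Figure D2:**
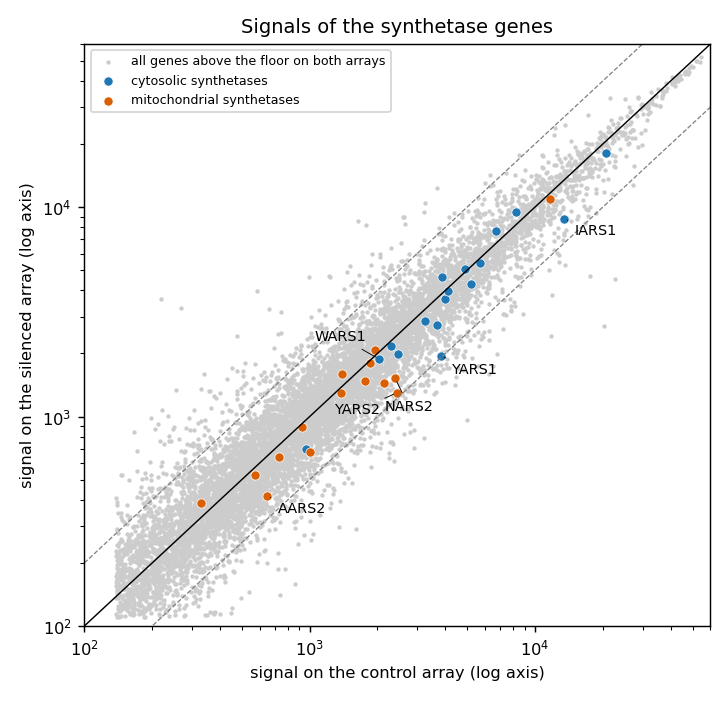
Signal on the silenced array against signal on the control array, both on log axes, for cytosolic (blue) and mitochondrial (orange) synthetases and for all 9579 genes above the floor on both arrays (grey). The solid line marks equal signals and the dashed lines 2-fold. All synthetases lie between the dashed lines, with YARS1 at 3821.3 and 1947.1 closest to the lower one.

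Cytosolic and mitochondrial enzymes had nearly the same median. The 17 measured cytosolic members had a median log2 ratio of -0.12, from -0.97 to 0.26, and the 15 mitochondrial members -0.11, from -0.91 to 0.23. Of the cytosolic enzymes 13 were under 0 and 2 at least 1.5-fold lower, and of the mitochondrial enzymes 12 and 3. Of all genes 49.7% were under 0 and 10.7% at least 1.5-fold lower. The ranges of the cytosolic and mitochondrial enzymes overlap over nearly their whole length. The difference of the medians, cytosolic minus mitochondrial, was -0.01. It became 0.15 when each gene took the median of its probe sets, with the mitochondrial median then at -0.23. The medians turned to 0.060 and 0.066 with the hybridization controls set equal, and both then lay 0.11 to 0.12 under the median of all genes. No test between these lists was made, since genes are not replicates.

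Among the cytosolic enzymes, the alanine, valine, histidine and glycine enzymes followed YARS1 and IARS1. AARS1, which also edits wrongly charged transfer RNA, had signals of 3660.7 and 2738.1 and a log2 ratio of -0.42. VARS1 had 961 and 699.9 with a ratio of -0.46, and its second probe set, with 237.2 and 171, gave -0.47. These VARS1 probe sets differed less from each other than the usual spread between probe sets. HARS1 had signals of 2475.8 and 1982.8, with a ratio of -0.32. GARS1, a gene that makes both the cytosolic and the mitochondrial glycine enzyme and is mutated in an inherited neuropathy, had 5212.9 and 4299.6, with -0.28. KARS1, which likewise serves both compartments with the lysine enzyme, had 20558.1 and 18100.8 with a ratio of -0.18, and 9535.4 and 7052.2 with -0.44 on a second probe set.

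The cytosolic phenylalanine enzyme is built of an alpha and a beta subunit, encoded by FARSA and FARSB. FARSB had signals of 3250.4 and 2857.1, a log2 ratio of -0.19, and its _x_at probe set, with 272.9 and 212.8, gave -0.36. FARSA had 2300.1 and 2163 with -0.09, but 1083.2 and 1291.3 with 0.25 on its other probe set. FARSA thus has no settled direction.

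Several cytosolic enzymes differed little or in both directions. LARS1, the leucine enzyme and also known as a leucine sensor, had signals of 3972.7 and 3652.2 with a log2 ratio of -0.12 on its brightest probe set, while its other 3 probe sets gave 0.10, 0.16 and 0.42. CARS1, the cysteine enzyme, had 4104.4 and 3956.3 with -0.05, and 0.06 and 0.11 on its others. EPRS1, a fused enzyme that charges both glutamate and proline, had 4911.9 and 5041.1 with 0.04, and 0.39 and -0.04 on its others. For LARS1, CARS1 and EPRS1 the array gives no direction. TARS1, the threonine enzyme, had 5693.2 and 5404.8, with -0.07, which turned to 0.11 with the hybridization controls set equal. Over all genes the median was then 0.18. The other cytosolic members above 0 were RARS1, the arginine enzyme, with 8263.5 and 9477 (0.20), NARS1, the asparagine enzyme, with 6717.2 and 7719.2 (0.20), and SARS1, the serine enzyme, with 3884.1 and 4642.2 (0.26). The second SARS1 probe set gave 0.01. RARS1 and NARS1 turned to -0.04 and -0.03 with the poly-A controls set equal, while SARS1 stayed at 0.02. Under that scaling the median of all genes was -0.24.

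Among the mitochondrial enzymes, those for leucine and glutamate stood next to the tyrosine, asparagine and alanine enzymes. LARS2, known with HARS2 from a syndrome of deafness and ovarian failure, had signals of 2136 and 1444.6, and its second probe set, with 917.9 and 718.1, gave -0.35. EARS2, which charges glutamate, had 1002 and 679, and its 2 further probe sets gave -0.56 and -0.33. LARS2 and EARS2 were thus lower on all of their probe sets above the floor. FARS2, the phenylalanine enzyme, a single chain unlike its cytosolic counterpart, had 1763.6 and 1480.6 with -0.25, and -0.21 on a second probe set. WARS2, the tryptophan enzyme, had 728 and 644.1 with -0.18, and -0.29 on a second.

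The remaining mitochondrial enzymes lay near 0. MARS2, the methionine enzyme, had signals of 569.6 and 526 (-0.11), CARS2, the cysteine enzyme, 1381.5 and 1289.2 (-0.10), and IARS2, the isoleucine enzyme, 11610.7 and 10916.7 (-0.09). HARS2 had 1858.1 and 1792 (-0.05) and SARS2, the serine enzyme, 923.5 and 892.4 (-0.05). All 5 changed direction with the hybridization controls set equal, a scaling that put the median of all genes at 0.18. Above 0 were VARS2, the valine enzyme, with 1391.3 and 1596.7 (0.20), PARS2, the proline enzyme, with 330.5 and 386.8 (0.23), and RARS2, the arginine enzyme, known from a developmental disorder of the hindbrain, with 1943.2 and 2079.8 (0.10). RARS2 was higher on its other 2 probe sets above the floor too, at 0.22 and 0.52. The value of 0.52 came from signals of 147.4 and 210.9, the first of them close to the floor of 138.4. VARS2, PARS2 and RARS2 turned to -0.03, -0.01 and -0.14 with the poly-A controls set equal, where the median of all genes was -0.24.

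Enzymes for the same amino acid were then set side by side. There were 14 such pairs, with EPRS1 used for both glutamate and proline and the mean of FARSA and FARSB for phenylalanine. In 10 pairs both enzymes had the same sign, and in 9 the cytosolic ratio was the higher. Of the measured members, 76.5% of the cytosolic and 80% of the mitochondrial enzymes were under 0. Most pairs would then share a sign however the enzymes were matched. Across the pairs the ratios correlated with Pearson's r = 0.31 and Spearman's rho = 0.21, and without tyrosine, over 13 pairs, with r = -0.06 and rho = 0.01. The pairs share the same 2 arrays, so this is a description, and it rests on the tyrosine pair.

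In 4 pairs the enzymes differed by more than 0.45, which is the SD between probe sets times the square root of 2. That is the SD of a difference between 2 probe sets of the same gene, so gaps past it are not unusual. The share of other gene pairs past it was not computed. NARS1, NARS2, VARS2, IARS1 and IARS2 each have 1 probe set. Asparagine had the widest gap, with NARS1 at 0.20 and NARS2 at -0.66, a difference of 0.86. For valine the order was reversed, with VARS1 at -0.46 and VARS2 at 0.20, a difference of -0.66. For glutamate EPRS1 stood 0.60 above EARS2, and for isoleucine IARS1 stood at -0.61 and IARS2 at -0.09, a difference of -0.52. The tyrosine pair differed by -0.07 and the tryptophan pair by 0.07. The small tyrosine gap depends on the brightest YARS1 probe set. With the median over each gene's probe sets YARS1 stood at -0.43 and YARS2 at -0.91. The histidine enzymes, whose start sites lie 85 bases apart on opposite strands in the promoter table, differed by -0.27. HARS1 and HARS2 are also alike in sequence, and whether their probe sets keep them apart was not tested.

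**Figure D3:**
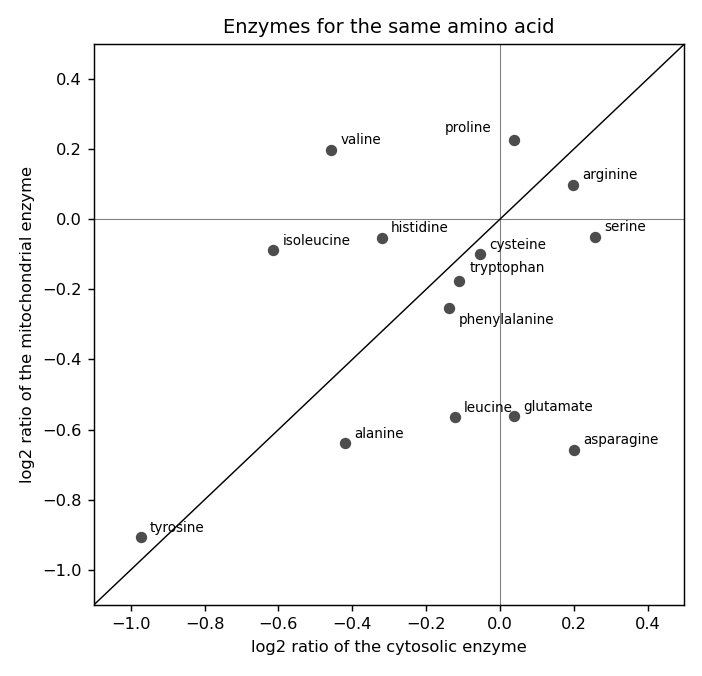
Log2 ratio of the mitochondrial enzyme (vertical axis) against that of the cytosolic enzyme (horizontal axis) for 14 amino acids, each point 1 amino acid; the solid line marks equal ratios. Tyrosine stands alone at -0.97 and -0.91, and asparagine, at 0.20 and -0.66, lies farthest from the line.

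The division into class I and class II, which are the unrelated folds of the catalytic core, did not part the members. The 16 measured class I members had a median log2 ratio of -0.12, with 13 under 0. The 15 class II members had -0.18, with 12 under 0, beside 49.7% of all genes under 0. EPRS1, which holds a core of each class, was counted in neither. With the hybridization controls set equal the medians were 0.063 and -0.0024, beside a median of 0.18 for all genes. The classes overlap throughout, although YARS1 and YARS2 both belong to class I.

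Several cytosolic enzymes sit in the multi-synthetase complex, held together by scaffold proteins. Of 7 such members on the list 5 were measured, with a median log2 ratio of -0.12 and IARS1 as the only one at least 1.5-fold lower. The 12 cytosolic members outside the complex had a median of -0.15, with YARS1 the only one that far down, beside 10.7% of all genes. Both medians turned above 0, to 0.060 and 0.033, with the hybridization controls set equal, where the median of all genes was 0.18. With the median over a gene's probe sets the complex stood at 0.037 and the members outside it at -0.17. Of the scaffold genes only AIMP1 had probe sets named for it alone. It had signals of 4252.4 and 5229.8, a ratio of 0.30, but -0.27 and -0.15 on its other probe sets, so it has no settled direction.

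Genes that work beside the synthetases, among them elongation factors and enzymes that act on transfer RNA, were set beside the family. Of 18 on the list, 15 were measured, 10 of them under 0, beside 49.7% of all genes. At 1.5-fold 0 were lower and 0 higher, beside 10.7% and 11.0% of all genes. The median log2 ratio was -0.11. It turned to 0.076 with the hybridization controls set equal, where the median of all genes was 0.18. The widest difference was in DTD2, a deacylase that removes wrongly attached amino acids, with signals of 1469.5 and 1073.4 and a ratio of -0.45, and -0.31 on a second probe set. The next was EEF1A1, the factor that carries charged transfer RNA to the ribosome, with 742.9 and 1007.5 and a ratio of 0.44. Its _x_at probe sets, which read the abundant transcript, gave -0.04 to 0.06, and a further one, with 113.4 and 313.9, was above the floor after silencing only. The mitochondrial counterpart TUFM had 11357.7 and 10029.9, with -0.18, and on a second probe set 237.5 and 110.5, with -1.1. The signal of 110.5 lies just above the floor of 109.5.

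Most genes of the ATF4 list had a log2 ratio under 0. ATF4 itself had signals of 9986.5 and 8349, a log2 ratio of -0.26. Of 21 genes on the list of ATF4 and its targets, 17 were measured, 13 of them under 0, beside 49.7% of all genes, with a median of -0.21. That median was -0.029 with the hybridization controls set equal and -0.099 with an offset of 50, beside 0.18 and -0.0024 for all genes. In this list 1 gene was at least 2-fold lower and 0 were higher, beside 3.18% and 3.42% of all genes. The lower one was CTH, the cystathionine lyase that makes cysteine, with signals of 371.1 and 115, which is 3.23-fold lower and ends close to the floor. Its second probe set was below both floors, and with a floor 2 times higher its ratio was -0.76. XPOT, the exporter of transfer RNA from the nucleus, had 4947.9 and 3465.6, a ratio of -0.51. ASNS, the asparagine synthetase, had 1378.1 and 1159.7, with -0.25. ATF3, a stress-induced factor, went the other way with 666.4 and 1122.7, a ratio of 0.75. Within the family, the 12 measured cytosolic members known to respond to ATF4 had a median of -0.12, and the other 5 cytosolic members -0.18. The median of those 12 turned to 0.065 with the hybridization controls set equal, beside 0.18 for all genes. ATF4, XPOT, ASNS, ATF3 and TUFM were chosen for mention after their values were seen.

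WARS1 differed little between the arrays. Of 8 genes known to be induced by interferon gamma and above the floor on both arrays, 3 were at least 2-fold higher. The 2 WARS1 probe sets had signals of 2033.5 and 1882.8, a log2 ratio of -0.11, and 1611.1 and 1789.6, a ratio of 0.15. They fall on either side of 0 and differ by less than the spread between probe sets. Of 16 genes on a list known to be induced by interferon gamma, 10 were measured. The 8 above the floor on both arrays all had a ratio over 0, with 3 at least 2-fold higher, beside 3.17% of all genes of that kind. GBP1 and SOCS1, a suppressor of cytokine signalling, passed the floor after silencing only, so each has a lower bound, which could fall only above 0. With these bounds 4 of 10 were at least 2-fold higher, beside 3.42% of all genes, and the median was 0.77, from 0.36 to 1.29 over the alternatives. The SOCS1 bound was 0.06, and ICAM1, an adhesion molecule, had 0.16 with -0.23 on another probe set. GBP2, IDO1, CXCL9 and CIITA were below both floors. No test of a difference between WARS1 and the list exists with 1 array per group. The list was chosen knowing that interferon-stimulated genes were higher on the silenced array.

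The genes past 2-fold, with GBP1 counted as a bound, were a chemokine pair, a guanylate-binding protein and a proteasome subunit. CXCL11 had signals of 171.8 and 685.8, 3.99-fold higher, and CXCL10 had 279.1 and 686, 2.46-fold higher. GBP1 was under the floor on the control array, with 61.5, and had 525.6 on the silenced array, at least 3.80-fold higher. With a floor 2 times higher the log2 ratio of CXCL11 was 1.31 and the bound for GBP1 0.93, under 2-fold. PSMB9, of the immunoproteasome, had 319.7 and 777.6, 2.43-fold higher. IRF1, a transcription factor induced early by interferon gamma, had 425.2 and 572.8, a log2 ratio of 0.43. IRF1, SOCS1, ICAM1 and the genes below both floors were named after their values were seen. Of 12 genes of this list in the promoter table, 6 held the response element and 5 the gamma-activated site. PSMB9 held neither, and CXCL9, below both floors, held the response element. The shares of all windows, 3.02% and 6.57%, count windows rather than genes, and a gene can have several windows. WARS2, the mitochondrial tryptophan enzyme, which is not known to be interferon-induced, had -0.18, so both tryptophan enzymes lay within the spread between probe sets.

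**Figure D4:**
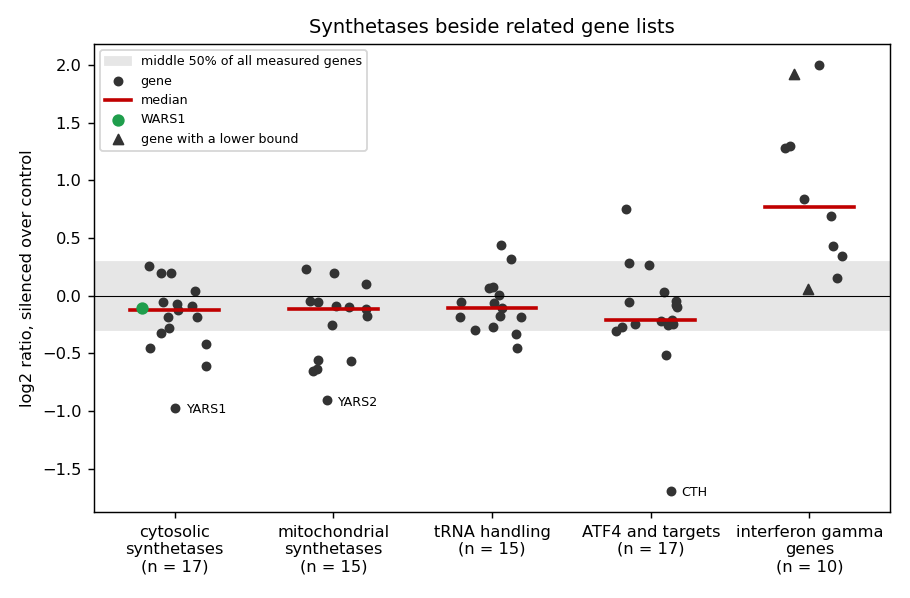
Log2 ratio of silenced over control (vertical axis) for each measured gene of the cytosolic and mitochondrial synthetases and of 3 related lists; red lines are medians and the grey band holds the middle 50% of all measured genes. Triangles are lower bounds. The synthetase medians are -0.12 and -0.11 and that of the interferon gamma list is 0.77, with WARS1 (green) at -0.11.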

How the data were processed

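Expression was measured on 2 one-colour Affymetrix arrays of AGS cells, 1 control and 1 galectin-3 silenced, placed in groups by their titles. The submitters' processing notes name MAS5, and the values the authors deposited are intensity values on a linear scale. Its version, scaling target and filters are not stated there. Both arrays have a 2% trimmed mean of 500.07, so a change in total RNA per cell would not be seen. MAS5 summarises each probe set alone, so low signals are noisy.

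Probe sets with 1 gene symbol in the platform annotation were used, 41097 of 54675; 41043 matched the RefSeq gene table of GRCh38.p14 by identifier. Signals under the floor were raised to it. Of 10514 measured genes, 352 above it on 1 array had a bound with no direction and were left out of counts and medians. Calls are by size (2-fold and 1.5-fold), with no test. The ratio, floor and scaling steps were tested on simulated data, in Python 3.11.15 with pandas 2.3.3 and statsmodels 0.14.6. Promoter sequences are those of RefSeq.

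Named genes are every member, and in each other list every gene past 2-fold or else the widest 2. ATF4, XPOT, ASNS, ATF3, TUFM, and in the interferon gamma list the genes under 2-fold or below both floors, fall outside this rule and were named after their values were seen. The members and lists were chosen with earlier results of these data known. Alternatives covered the floor, an offset of 50, scalings and the choice of probe set.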

Additional observations from a re-analysis of the deposited data

How the results depend on the processing

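With 1 array per group no array could be left out. No paired analysis was possible because each group holds 1 array and no test was made. The medians, counts and ratios of the family were recomputed under 13 alternatives. With the hybridization controls set equal, the cytosolic median turned to 0.060 and the mitochondrial median to 0.066. Then 2 members were at least 1.5-fold different and 14 under 0. Of all genes 6.13% were then 1.5-fold lower, 18.2% 1.5-fold higher and 33.3% under 0, with a median of 0.18. With the poly-A controls set equal, the medians were -0.35 and -0.35, with 2 members at least 2-fold and 9 at least 1.5-fold different. Of all genes 21.7% were then 1.5-fold lower, 5.78% 1.5-fold higher and 70.2% under 0, with a median of -0.24. The share of all genes past 2-fold was not recomputed. These scalings shift every gene alike. Where each gene took the median over its probe sets, the mitochondrial median was -0.23 and the cytosolic minus mitochondrial difference 0.15. Without _s_at and _x_at probe sets 26 members were left, of which 3 were at least 1.5-fold different, and YARS1 turned to 0.12, the value of its only remaining probe set. Over all alternatives WARS1 ran from -0.34 to 0.07 and the number of members under 0 from 14 to 31. The counts of 14 and 31 came from the hybridization and poly-A scalings, which move all genes. The count of members under 0 and the values of the other lists were chosen for recomputing after seeing the data. GBP1, a bound, ran from 0.93 with a floor 2 times higher to 3.10 without a floor. The interferon gamma list's median was 0.41 without a floor, 0.36 with an offset and 1.29 without _s_at and _x_at probe sets. Signals near the floor and genes with 1 probe set are the least certain.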
